A study of Homo sapiens with 24 samples.

Results

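The nuclear pore complex and the carriers that move cargo through it were followed at the RNA level as a family of 48 genes. Members were taken by symbol, with no use of their measured values: every NUP gene with a number (NUP62CL included), KPNA1 to KPNA7, KPNB1, the numbered IPO genes, TNPO1 to TNPO3, and AAAS, RANBP2, TPR, SEH1L, SEC13, POM121, POM121C and NDC1. These were 48 of 37967 genes listed, 30 nucleoporins, 7 importin alpha genes and 11 genes of the importin beta family. All 48 were among the 22833 genes with a count in any library, and 47 of them averaged at least 100 normalized counts over the 24 libraries. The exception was KPNA7, an importin alpha of the egg and early embryo, which lay between 0 and 8.58 normalized counts. Its own fold change is not printed here, but it enters the counts and medians over all 48 members.

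The pore is built from rings that are stacked in the nuclear envelope. The Y complex forms the outer rings, the inner ring lines the channel, the membrane ring holds the pore in the envelope, and nucleoporins rich in phenylalanine-glycine repeats fill the central channel, while filaments reach into the cytoplasm and a basket reaches into the nucleus. Importin alpha proteins bind the classical nuclear localization signal and join importin beta (KPNB1), and the other members of the importin beta family carry ribosomal proteins, histones, splicing factors and other cargo, with the small GTPase RAN setting the direction.

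RNA was sequenced from HCT116, a human colorectal cancer epithelial line sensitive to oxaliplatin, and from HCT116 oxpl-R, a resistant line derived from it by repeated exposure to the drug. Both lines carried the TetOn-E1A transgene, controls included, so that doxycycline switches on the adenoviral protein E1A. Each line gave 4 groups of 3 libraries, labelled as biological replicates: control, E1A (0.5 µg/mL doxycycline, added 3 h before the time of drug addition), oxaliplatin (25 µM for 24 h) and E1A + oxaliplatin. The controls received no doxycycline, so an effect of E1A and an effect of doxycycline cannot be told apart, and the resistant cells were 1 derived line. In bulk RNA, fewer cells with a transcript and less transcript per cell cannot be told apart either.

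Counts summed to 24838095 to 37927720 per library. All 7 epithelial markers examined were detected in every library (KRT8 at 78525 to 259401 normalized counts), while leukocyte markers summed to at most 83.9 and endothelial ones to at most 18.9. The fibroblast list reached 1578, mostly from COL1A1, with DCN and LUM at no more than 2.79. The p53 targets CDKN1A, MDM2 and GDF15 summed to 8700 to 9268 normalized counts in HCT116 controls and 68323 to 80424 after oxaliplatin, and to 32846 to 34813 and 166438 to 225806 in HCT116 oxpl-R, so that no treated library overlapped the controls of its line. One library stood apart: HCT116 oxpl-R oxaliplatin replicate 1 held 1.38% mitochondrial counts against 11.03% to 19.73% in the other 23.

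For the members, other libraries stood apart as well. In HCT116 oxpl-R, 12 of the 47 members above 100 counts were highest in replicate 3 in all 4 groups, as were 9.89% of the 10612 genes of that abundance. NUP107, a Y complex scaffold, was the clearest of them, with 482, 410 and 1932 normalized counts in the 3 oxpl-R controls, 437, 492 and 1878 with E1A, 595, 178 and 1262 with oxaliplatin and 154, 259 and 1129 with both. The replicate 3 value averaged 4.2 times the other replicates. IPO7 and TNPO1, carriers of ribosomal proteins and RNA-binding proteins, and IPO11 behaved alike, at 2.96, 2.79 and 2.73 times. NUP133, IPO5, NUP155, NUP88, NUP54, NUP58, NUP42 and NDC1 completed the set at 1.4 to 2.09 times. In the same libraries IPO13, IPO9, KPNA6, KPNB1, NUP188 and NUP98 were lowest in replicate 3 in all 4 groups, 6 members, as were 10.9% of the genes of that abundance. In HCT116 no member was highest in the same replicate number in all 4 groups. Of the 10612 genes, 0.368%, 0.405% and 0.141% were so for replicates 1, 2 and 3, so few members could be. What replicate 3 of the resistant line shared was not tested.

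**Figure D1:**
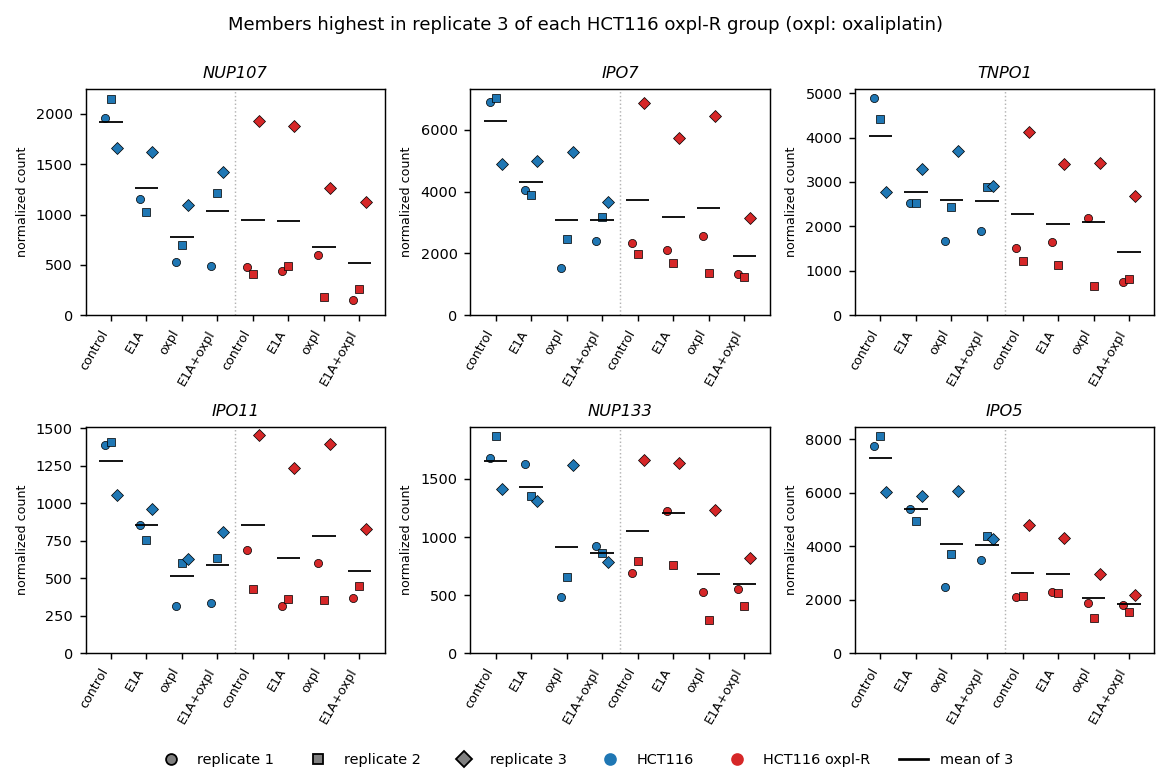
Normalized counts (y axis) of 6 members in each of the 24 libraries, by group (x axis, HCT116 in blue, HCT116 oxpl-R in red), with the replicate number as marker shape and the mean of 3 as a bar. In all 4 groups of HCT116 oxpl-R the diamond of replicate 3 lies above the other points, at 1932 against 482 and 410 for NUP107 in the controls.

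In HCT116, a library stood apart in each of the groups given oxaliplatin. The first was HCT116 oxaliplatin replicate 3. The members' median stood 0.28 below the HCT116 controls in it on the log2 scale, against 0.96 and 0.81 below in replicates 1 and 2. RANBP2, the SUMO ligase of the cytoplasmic filaments, had 454, 443 and 3448 normalized counts in the 3 oxaliplatin libraries against 1858, 2181 and 1716 in the controls. TPR, the scaffold of the nuclear basket, had 744, 1034 and 3883 against 2977, 2457 and 3130. The second was HCT116 E1A + oxaliplatin replicate 1. NUP62CL, a little studied relative of NUP62, had 54.3, 382 and 467 normalized counts in that group, and SEH1L, which the Y complex shares with the GATOR2 complex, had 768, 1977 and 2427, so that replicate 1 was far below the others for both. RANBP2 shares sequence with the RGPD genes, so its counts are uncertain, as are those of the near-identical pair POM121 and POM121C. Counts of calls without these libraries are given with the comparisons between the lines and of oxaliplatin.

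Levels per kilobase of the MANE Select transcript differed widely between members. In HCT116 controls the highest was KPNA2, the importin alpha of proliferating cells, at 11507 ± 469 normalized counts per kb (SD, n = 3), followed by SEC13, shared with the COPII coat of the endoplasmic reticulum, at 4572 ± 518 and KPNB1 at 2231 ± 61.1. AAAS (1825 ± 166) and NUP85 (1617 ± 174), next in this order, lay within 1 summed SD of each other. The lowest of the detected members were KPNA5 at 28 ± 2.3, RANBP2 at 164 ± 20.4 and NUP62CL at 174 ± 25.5. In HCT116 oxpl-R controls KPNA2 again led with 7964 ± 674, then SEC13 with 6099 ± 405.

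The first question was how the untreated resistant line differs from its parent. The family was lower in it: 16 of 48 members passed the test as lower in HCT116 oxpl-R and 0 as higher (edgeR's quasi-likelihood test, Benjamini-Hochberg adjusted p below 0.05 over 22833 genes). That is 33.3% of the members, where 6.93% of all genes tested were called lower and 7.23% higher, or 13.3% and 10.4% of the 10612 genes with at least 100 normalized counts on average. The members' median log2 fold change was -0.56, against -0.07 for those 10612 genes. A value below 0 was found for 40 of 48 members and for 55.1% of those genes.

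At least 1 member was called lower in each part of the pore, but the groups are small. The share called lower was 14.3% in importin alpha, 22.2% in the Y complex group and 25% in the membrane ring and the channel. It was 36.4% to 66.7% in the other groups, against 13.3% of genes with at least 100 counts. NUP160 and NUP98, whose precursor also yields the Y complex subunit NUP96, were called among the 9 genes of the Y complex group, whose median was -0.28, with NUP37, NUP85 and SEC13 at log2 values of 0.59, 0.38 and 0.42 that did not pass. NUP188 and NUP93 were called of 5 inner ring genes, POM121 of 4 membrane ring genes and NUP62 of 4 channel genes. On the cytoplasmic side AAAS, NUP214 and NUP88 passed of 5, and NUP153 and NUP50 passed of the 3 basket genes. Of the carriers, KPNA3 passed of 7 importin alpha genes and IPO4, IPO5, IPO9 and TNPO3 of 11 importin beta genes. KPNB1, the partner of importin alpha, was at -0.53 ± 0.23 (SE) and did not pass.

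IPO5, which imports ribosomal proteins and histones, was the member with the largest difference. It had 7756, 8127 and 6033 normalized counts in HCT116 and 2116, 2132 and 4789 in HCT116 oxpl-R. The groups did not overlap, but the third resistant library lay much nearer to the parental ones than the others. The log2 fold change was -1.28 ± 0.31 (SE, edgeR quasi-likelihood adjusted p = 0.00398).

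NUP153, a repeat nucleoporin of the basket, had 2921, 3404 and 2814 normalized counts in the parent and 1622, 1519 and 1268 in the resistant line. NUP188, a large scaffold of the inner ring, had 6631, 7097 and 7961 against 3935, 3869 and 3300. For both genes every resistant library was well below every parental one, at log2 fold changes of -1.05 ± 0.21 (edgeR adjusted p = 0.000734) and -0.97 ± 0.18 (adjusted p = 0.000189). The remaining called members fell between -0.50 (AAAS) and -0.93 (NUP160). In the fit of these 6 libraries alone 27 members were called, 24 lower and 3 higher. Without HCT116 control replicate 3, or HCT116 oxpl-R control replicate 1 or 2, the number was 9, 8 or 10, all of them lower. Without HCT116 oxpl-R control replicate 3 it was 13, all lower, and with replicate 3 left out of all 4 HCT116 oxpl-R groups it was 22, 20 lower and 2 higher. All genes called lower went from 1583 to 2754, 1037, 1187, 1073, 1149 and 1824, in the order of these refits.

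**Figure D2:**
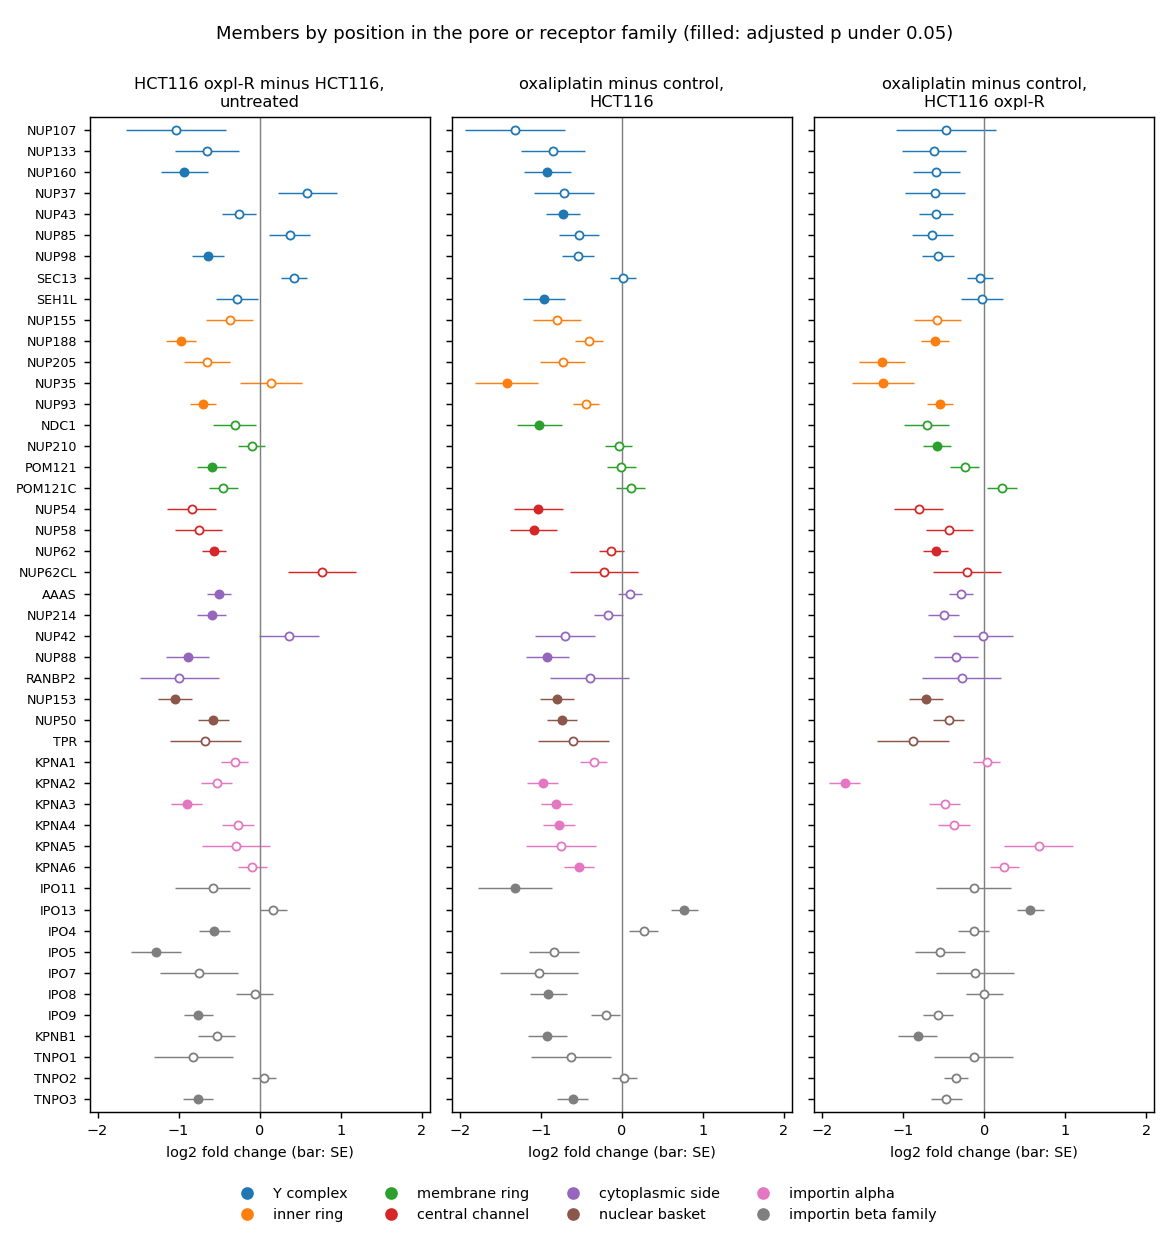
Log2 fold change (x axis, bar: SE) of 47 members, ordered by position in the pore or carrier family (y axis and colour), for HCT116 oxpl-R minus HCT116 untreated (left) and for oxaliplatin minus control in HCT116 (middle) and HCT116 oxpl-R (right), with filled points where the adjusted p was under 0.05. All 16 filled points on the left lie below 0, and IPO13 is the single filled point above 0 in the other panels.

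The members are spread over 18 chromosomes of GRCh38, and their difference between the lines was set beside that of other genes on the same chromosome. On chromosome 3, where the median of genes with at least 100 counts was 0.35, the 4 members had a median of -0.19. On chromosome 9 the values were 0.01 for all such genes and -0.78 for NUP188 and NUP214. Chromosomes 6 and X went the other way, with -0.32 for all such genes against -0.29 for the members, and 0.08 against 0.77 for NUP62CL. In all, 39 of 48 members lay below the median of their own chromosome. The median difference from it, over all 48 members, was -0.53 on the log2 scale.

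The same question was asked under each treatment, with other libraries. Under oxaliplatin, 16 members were lower in HCT116 oxpl-R and 3 higher, where 12.3% of all genes tested were lower and 13.8% higher (22.9% and 23.1% of genes with at least 100 counts). The share of lower members, 33.3%, was as in untreated cells, and the members' median was -0.33 against 0.05. KPNA2, NUP188 and NUP205 showed the largest differences. KPNA2 had 10844, 10377 and 13287 normalized counts in treated HCT116 and 4047, 4081 and 6248 in treated HCT116 oxpl-R. The groups were far apart, with a log2 fold change of -1.26 ± 0.19 (edgeR quasi-likelihood adjusted p = 6.47e-06). NUP188 (5388, 5288 and 5629 against 2990, 2376 and 1891; log2 -1.17 ± 0.18) and NUP205, its neighbour in the inner ring (1653, 1091 and 2592 against 648, 838 and 880; log2 -1.17 ± 0.28), also did not overlap.

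The 3 members higher in HCT116 oxpl-R under oxaliplatin were NUP42, IPO8 and KPNA6. NUP42, which binds the mRNA export factor GLE1 on the cytoplasmic filaments, had 376, 590 and 528 normalized counts in HCT116 and 688, 1174 and 1242 in HCT116 oxpl-R (log2 1.05 ± 0.37, edgeR adjusted p = 0.0342). IPO8, an importin beta that binds Argonaute proteins and SMADs, had 459, 599 and 1072 against 1009, 1263 and 1553 (log2 0.84 ± 0.23, adjusted p = 0.0062). KPNA6 had 2997, 3093 and 3787 against 5051, 5876 and 5036 (log2 0.69 ± 0.18, adjusted p = 0.00336). IPO8 overlapped between the groups through HCT116 replicate 3, and the other genes did not. The NUP42 call was lost in 7 of 13 alternatives (edgeR or DESeq2 adjusted p up to 0.179), that of IPO8 in 3 and that of KPNA6 in 1. With replicate 3 left out of all 4 HCT116 oxpl-R groups the calls numbered 31, 26 lower and 5 higher, and without HCT116 oxpl-R oxaliplatin replicate 1 or HCT116 oxaliplatin replicate 3 they numbered 21 and 16. All genes called lower went from 2808 to 2573, 2953 and 2927, in the order of these refits.

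With E1A, HCT116 oxpl-R had 13 members lower and 2 higher, at backgrounds of 7.57% lower and 6.81% higher over all genes (14.8% and 9.98% of genes with at least 100 counts). These were 27.1% and 4.17% of the family. The largest falls were those of NUP153 (3631, 3597 and 2396 against 1593, 1434 and 1285; log2 -1.16 ± 0.21), NUP93 (5033, 5080 and 3780 against 2666, 2523 and 2648; log2 -0.83 ± 0.16) and KPNA3 (3930, 3500 and 2756 against 1942, 2042 and 1854; log2 -0.80 ± 0.19). None of these overlapped between the lines. NUP37, a Y complex subunit, was higher, at 1288, 1200 and 1619 against 3271, 4777 and 2019, and so was NUP62CL, at 192, 218 and 253 against 390, 764 and 473. Both had a log2 fold change of 1.29, with SEs of 0.38 and 0.43, and their groups did not overlap. Without HCT116 E1A replicate 1 or 2, or HCT116 oxpl-R E1A replicate 2, the count of calls went from 15 to 8, 9 or 8, all lower, and the NUP62CL and NUP37 calls were lost in 5 and 3 of 14 alternatives. Without HCT116 oxpl-R E1A replicate 3 it stayed at 15, and with replicate 3 out of all 4 HCT116 oxpl-R groups it was 21. All genes called lower went from 1728 to 1048, 1007, 1044, 1211 and 1913, in the order of these refits.

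With E1A and oxaliplatin together, 11 members were lower and 2 higher, against 9.11% and 10.4% of all genes (17.2% and 16.8% of genes with at least 100 counts). These were 22.9% and 4.17% of the family, so the lower share was not far above that of genes with at least 100 counts. IPO5 (3502, 4376 and 4270 against 1801, 1557 and 2161; log2 -1.14 ± 0.31), IPO4 (5460, 4093 and 3559 against 2248, 2130 and 2127; log2 -1.01 ± 0.19) and AAAS, the protein whose loss causes triple A syndrome (3658, 3177 and 3132 against 1672, 1785 and 2018; log2 -0.86 ± 0.15), led the falls. IPO8 (688, 751 and 889 against 1283, 1464 and 959; log2 0.67 ± 0.23) and KPNA6 (3225, 3191 and 3383 against 5320, 5111 and 3460; log2 0.50 ± 0.18) were higher, and none of the 5 overlapped. The KPNA6 call was lost in 7 of 14 alternatives (adjusted p up to 0.207) and the IPO8 call in 6 (up to 0.191), both of them also without HCT116 E1A + oxaliplatin replicate 1, where 9 members were lower and 1 higher. Without HCT116 oxpl-R E1A + oxaliplatin replicate 2 the count fell from 13 to 8, all lower. Without replicate 3 of that group it was 15, and with replicate 3 out of all 4 HCT116 oxpl-R groups 19. All genes called lower went from 2081 to 1480, 1400, 2152 and 2217, in the order of these refits.

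Over these 4 comparisons, which use different libraries, 8 members were called lower in HCT116 oxpl-R every time: NUP188, NUP93, POM121, NUP62, NUP214, AAAS, IPO4 and IPO9. How many of all genes recurred in this way was not counted, so the recurrence has no background beside it. IPO5, KPNA3, NUP153, NUP98 and TNPO3 were called lower in 3, and KPNA2 in 2. NUP160, NUP205, NUP210, NUP50, NUP88, POM121C and TNPO2 were called lower in 1. No member was called higher in more than the 2 comparisons in which IPO8 and KPNA6 passed, both of them with oxaliplatin.

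The next question was what oxaliplatin, a platinum drug that crosslinks DNA, does to the family in each line. In HCT116, 18 members fell and 1 rose, so that 37.5% of the family was lower, where 8.49% of all genes tested were lower and 9.04% higher (16.7% and 16.5% of genes with at least 100 counts). The median log2 fold change of the members was -0.71, that of the genes with at least 100 counts -0.12. Below 0 lay 41 of 48 members and 56.0% of the genes with at least 100 counts. These comparisons share their control libraries with the untreated comparison of the lines.

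At least 1 fall was called in each of the 8 groups of members in HCT116, against 16.7% of genes with at least 100 counts. The inner ring and the cytoplasmic side had 20% called lower and the membrane ring 25%, each through 1 gene. The other groups had 33.3% to 66.7%. Without HCT116 oxaliplatin replicate 1 only 2 members were called lower, so the spread over the groups depended on the libraries. Among the nucleoporins NUP160, NUP43 and SEH1L passed in the Y complex, NUP35 in the inner ring, NDC1 in the membrane ring, NUP54 and NUP58 in the channel, NUP88 on the cytoplasmic side and NUP153 and NUP50 in the basket. Among the 7 importin alpha genes 4 passed, KPNA2 at -0.98 ± 0.19, KPNA3 at -0.81, KPNA4 at -0.78 and KPNA6 at -0.53. Of the importin beta family KPNB1 (-0.92 ± 0.24), IPO8, IPO11 and TNPO3 fell. SEC13, AAAS, POM121 and NUP210 did not pass, with log2 values from -0.04 to 0.10.

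NUP35, which anchors the inner ring to the membrane, showed the largest change, from 882, 846 and 624 normalized counts in controls to 239, 353 and 288 with oxaliplatin. The groups were well apart (log2 -1.42 ± 0.39, edgeR quasi-likelihood adjusted p = 0.00996). IPO11, an importin for ubiquitin-conjugating enzymes, went from 1389, 1411 and 1057 to 314, 600 and 631 (log2 -1.32 ± 0.46, adjusted p = 0.0466), a call that was lost in 11 of 14 alternatives (adjusted p up to 0.274). NUP58, which forms the channel meshwork with NUP54 and NUP62, went from 3812, 3763 and 2758 to 987, 1498 and 2384 (log2 -1.09 ± 0.29, adjusted p = 0.00845), with the third treated library not far below the lowest control. The NUP58 call was lost in 2 of 14 alternatives and that of NUP35 in 1.

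IPO13 was the member that rose. It is an importin beta that both imports the exon junction core and exports the translation factor eIF1A. Its 1236, 1267 and 1277 normalized counts became 2110, 2195 and 2147, a spread far smaller than the change (log2 0.77 ± 0.17, edgeR adjusted p = 0.00195). The number of members called depended on the libraries: without HCT116 oxaliplatin replicate 1 it went from 19 to 3 and without replicate 2 to 8, while without replicate 3, the library that stood apart, it was 27. Leaving out HCT116 control replicate 1 or 2 gave 12 or 11, and 31 were called when replicate 3 was left out of the HCT116 oxpl-R groups, which share the estimate of the spread. All genes called lower went from 1938 to 561, 947, 2551, 1130, 1029 and 3137, in the order of these refits.

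In HCT116 oxpl-R, 9 members fell and 1 rose after oxaliplatin. This was 18.8% of the family lower, where 3.07% of all genes were lower and 3.09% higher (5.73% and 5.67% of genes with at least 100 counts). The median of the members was -0.47, against 0.01 for genes with at least 100 counts. Below 0 lay 42 of 48 members and 49.1% of those genes. In the inner ring NUP205, NUP35, NUP188 and NUP93 were called of 5 genes, and NUP155 was at -0.58 ± 0.29. The others were KPNA2, KPNB1, NUP153, NUP62 and NUP210, and no gene of the Y complex passed, although all 9 of its values were below 0.

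KPNA2 fell most, from 14474, 17130 and 15631 normalized counts to 4047, 4081 and 6248. This was 3.29-fold lower (log2 -1.72 ± 0.19, edgeR quasi-likelihood adjusted p = 1.9e-07) with no overlap, and in HCT116 the fall from 21686, 23388 and 23172 to 10844, 10377 and 13287 was 1.98-fold. NUP205 went from 1500, 2485 and 1662 to 648, 838 and 880 (log2 -1.26 ± 0.28, adjusted p = 0.00425), all treated libraries lying below all controls. NUP35 went from 811, 1047 and 734 to 171, 500 and 424 (log2 -1.25 ± 0.38, adjusted p = 0.0476), where the lowest value is that of replicate 1, the library low in mitochondrial counts. Without that library it was at -0.90 and did not pass (edgeR adjusted p = 0.276).

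IPO13 rose here too, from 1466, 1460 and 1335 to 2633, 2048 and 1632 (log2 0.57 ± 0.17, edgeR adjusted p = 0.0395), with a wider spread than in HCT116 and its highest value in replicate 1, without which it was at 0.37 and did not pass (edgeR adjusted p = 0.277). KPNA2 and NUP205 passed under all 13 alternatives tried. The count of 10 calls was 2 in the fit of these 6 libraries alone, 6 on the length-scaled table, 7 without HCT116 oxpl-R oxaliplatin replicate 1, 9 without its replicate 3, 8 without control replicate 3, 11 with replicate 3 out of all 4 HCT116 oxpl-R groups, and 3, 2 and 4 without HCT116 oxpl-R control replicate 1, control replicate 2 and oxaliplatin replicate 2. All genes called lower went from 702 to 430, 688, 585, 636, 579, 758, 535, 518 and 528, in the order of these refits.

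The oxaliplatin responses of the lines rest on separate libraries. KPNA2, KPNB1, NUP153 and NUP35 were called lower in both, which is 22.2% of the 18 members lower in HCT116 and 44.4% of the 9 lower in HCT116 oxpl-R, and IPO13 was called higher in both, with NUP35 and IPO13 lost in HCT116 oxpl-R without its oxaliplatin replicate 1. The same overlap over all genes was not counted. KPNA2 and KPNB1 are the partners of classical import. A call in one line and not the other does not show that the lines differ, and the difference itself passed for 0 of 48 members, where 3.07% of genes passed. At an unadjusted p below 0.05 there were 7 (IPO8, KPNA2, KPNA5, KPNA6, NUP210, NUP62 and SEH1L), and DESeq2 called 2, KPNA2 at -0.81 ± 0.26 and NUP62 at -0.55 ± 0.19. Of all 22833 genes, DESeq2 called 350 with a higher difference and 984 with a lower one. SEH1L was at -0.96 ± 0.26 in HCT116 and -0.03 ± 0.26 in HCT116 oxpl-R (difference 0.92 ± 0.37, edgeR adjusted p = 0.195). Without HCT116 oxaliplatin replicate 3 the difference passed for 4 members, IPO8 (1.28 ± 0.29), KPNA5, KPNA6 and RANBP2, all less reduced or higher in the resistant line. In that refit the difference was called higher for 667 of 22768 genes and lower for 924.

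**Figure D3:**
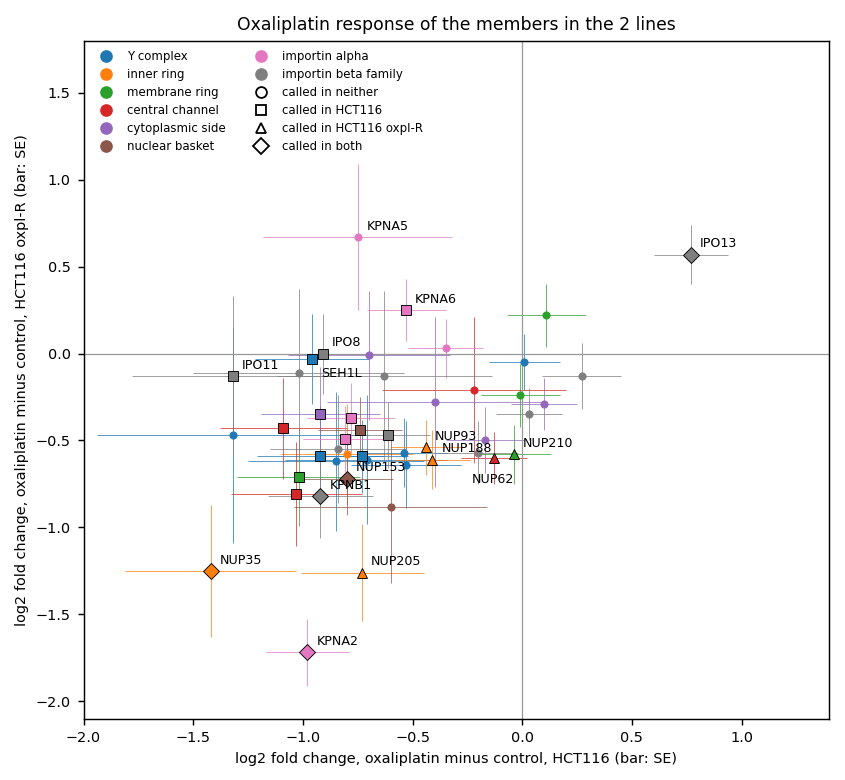
Log2 fold change after oxaliplatin in HCT116 (x axis) and in HCT116 oxpl-R (y axis) for 47 members, with bars of 1 SE, colour for the position in the pore or carrier family and marker shape for the line in which the change was called. IPO13 is alone in the upper right with a diamond, at 0.77 and 0.57, and KPNA2 is lowest, at -0.98 and -1.72.

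Gene span was compared with the oxaliplatin change as a description, since the points share their libraries. Members are long genes, with a median span of 64.0 kb against 32.8 kb for genes with at least 100 counts. Across 10526 such genes with a position, Spearman's rho of span and log2 fold change was -0.43 in HCT116 and -0.07 in HCT116 oxpl-R. Across the 47 members rho was -0.08 and -0.01. The 24 longer and 23 shorter members had medians of -0.62 and -0.73 in HCT116.

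The promoters of the 4 members that led the oxaliplatin responses in HCT116 oxpl-R are printed for the letters CCAAT, the core bound by NF-Y, in capitals (either strand). They are the 250 bases before the start of the RefSeq transcript in GRCh38.p14, on the plus strand. KPNA2 (chr17:68035485-68035734), NUP205 (chr7:135557667-135557916), NUP35 (chr2:183124193-183124442) and IPO13 (chr1:43946700-43946949) read as follows, with 2 matches in KPNA2, 1 each in NUP205 and NUP35 and 0 in IPO13.
KPNA2: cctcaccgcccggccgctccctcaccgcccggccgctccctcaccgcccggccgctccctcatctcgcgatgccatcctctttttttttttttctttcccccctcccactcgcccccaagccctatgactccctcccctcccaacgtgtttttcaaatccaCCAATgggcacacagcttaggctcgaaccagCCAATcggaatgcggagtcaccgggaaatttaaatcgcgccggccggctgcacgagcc
NUP205: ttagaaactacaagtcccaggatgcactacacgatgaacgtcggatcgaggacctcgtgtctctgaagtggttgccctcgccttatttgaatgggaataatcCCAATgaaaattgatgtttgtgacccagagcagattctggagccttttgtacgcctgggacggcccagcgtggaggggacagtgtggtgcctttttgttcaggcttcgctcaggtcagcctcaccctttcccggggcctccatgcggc
NUP35: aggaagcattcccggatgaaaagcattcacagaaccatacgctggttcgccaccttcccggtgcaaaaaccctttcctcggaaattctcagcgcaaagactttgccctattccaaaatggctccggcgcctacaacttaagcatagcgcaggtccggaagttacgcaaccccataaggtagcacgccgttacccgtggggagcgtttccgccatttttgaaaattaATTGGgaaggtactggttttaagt
IPO13: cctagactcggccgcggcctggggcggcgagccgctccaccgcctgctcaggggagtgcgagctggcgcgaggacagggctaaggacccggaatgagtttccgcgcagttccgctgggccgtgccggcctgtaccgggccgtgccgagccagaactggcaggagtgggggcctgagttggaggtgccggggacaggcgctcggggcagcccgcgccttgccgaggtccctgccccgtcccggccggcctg

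Of 43 members matched to a promoter of 250 bases before and 50 after the start, 18 (41.9%) held CCAAT, as did 36.6% of 8618 promoters of genes with at least 100 counts and 35.7% of all 27305. E2F letters (TTTCCCGC, TTTGGCGC, TTTGCCGC or TTTCGCGC) were in 3 (IPO7, IPO11 and NUP155), or 6.98% against 5.59% of promoters of genes with at least 100 counts and 3.33% of all. The NRF1 consensus was in 3 (NUP107, NUP62 and NUP50), or 6.98% against 2.38% and 1.36%. Among the 20 matched members called lower after oxaliplatin in either line, CCAAT was in 6 (30%), E2F letters in 1 (5%) and the NRF1 consensus in 2 (10%). The shares among genes with at least 100 counts were 36.6%, 5.59% and 2.38%, so CCAAT was not more frequent among the members that fell. Both strands were searched, and in 0 of 43 promoters did matches to different motifs overlap.

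The last question was whether E1A changes the family. The level of the E1A transcript was not examined here, so its induction was not checked in these libraries. No member passed, in either direction, in any of the 4 comparisons with E1A as the variable. In untreated HCT116, 0.377% of all genes were higher and 0.00876% lower with E1A, and 0.21% and 0.00438% in untreated HCT116 oxpl-R. At an unadjusted p below 0.05 the members numbered 0 in both lines, and DESeq2 called 0. Member medians were -0.04 and -0.02, with a median SE of 0.23. In the fit of the 6 untreated HCT116 libraries alone, however, 12 members were lower with E1A: NUP107, NUP37, NUP43, SEH1L, NUP155, NUP35, NDC1, NUP58, IPO5, IPO7, IPO11 and TNPO1, at -0.42 to -0.65. That fit called 1196 of 19344 genes lower and 536 higher.

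On top of oxaliplatin, E1A was accompanied by 0 calls in HCT116, where 0.0832% of genes were higher and 0% lower, and by 0 in HCT116 oxpl-R, where 1.28% were higher and 0.127% lower. By unadjusted p below 0.05 there was 1 member in HCT116 (NUP35, log2 0.82 ± 0.38, edgeR quasi-likelihood adjusted p = 1) and DESeq2 called 0, as did edgeR without HCT116 E1A + oxaliplatin replicate 1. In HCT116 oxpl-R there were 5, KPNA2, NUP188, NUP205, NUP210 and NUP62, and DESeq2 called 0. These comparisons share the oxaliplatin libraries with those of oxaliplatin against control. NUP205 went from 648, 838 and 880 normalized counts with oxaliplatin to 1744, 1254 and 907 with E1A added, without overlap (0.72 ± 0.28, edgeR adjusted p = 0.318). NUP188 went from 2990, 2376 and 1891 to 3933, 3447 and 3103, also without overlap (0.53 ± 0.17, adjusted p = 0.17). These values did not pass the correction. NUP188 passed without HCT116 oxpl-R oxaliplatin replicate 1 (0.71 ± 0.18, adjusted p = 0.0409).

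The difference between the lines in the E1A response passed for 0 of 48 members (0.00876% of genes) by edgeR, and the interaction of E1A with oxaliplatin for 0 of 48 in HCT116 (0.0131%) and 0 of 48 in HCT116 oxpl-R (0.0438%). The counts at an unadjusted p below 0.05 were 0, 3 (NDC1, NUP35 and SEH1L) and 0, and DESeq2 called 0 in each.

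A wider list of 49 genes of the same pathway that are no members was set beside the family. It held genes of RAN regulation, mRNA export and SUMO handling, and also further transport receptors and pore proteins. Of these genes 41 were tested, and the rest, among them every listed gene with an XPO symbol, were not analysed here. Its shares of calls are set against those of genes with at least 100 counts, given above for each comparison. In untreated cells 4 of the 41 differed between the lines, DDX39A higher in HCT116 oxpl-R (0.72 ± 0.20) and DDX19A (-0.78 ± 0.16), ALYREF (-0.55 ± 0.19) and RAE1 lower, which is 2.44% higher and 7.32% lower against 10.4% and 13.3%, and the list's median was -0.16, against -0.56 for the family. Under oxaliplatin 12 differed, 5 higher, led by SARNP (1.46 ± 0.37) and NCBP2 (1.44 ± 0.19), and 7 lower, led by THOC6 (-1.72 ± 0.16), a subunit of the THO complex, and ALYREF (-1.33 ± 0.19), the mRNA export adaptor. These shares, 12.2% and 17.1%, were below the 23.1% and 22.9% of genes with at least 100 counts. With E1A 5 were higher (SEM1 at 1.22 and HIKESHI at 1.15 first) and 5 lower (DDX19A at -0.80 and DDX19B at -0.62 first), 12.2% each way against 9.98% and 14.8%. With both treatments 2 were higher, NCBP2 (1.22) and SENP2 (0.54), and 7 lower, with THOC6 (-1.48) and RCC1 (-0.96) first, or 4.88% and 17.1% against 16.8% and 17.2%.

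After oxaliplatin in HCT116 7 genes of the wider list fell and 2 rose, 17.1% and 4.88% where 16.7% and 16.5% of genes with at least 100 counts did, so the share that fell was that of the background. RAN, the GTPase that sets the direction of transport, fell by 1.12 ± 0.25 on the log2 scale and SARNP by 1.10 ± 0.37, while THOC6 (0.76 ± 0.16) and NXT1 (0.59 ± 0.20) rose. In HCT116 oxpl-R 3 fell, ALYREF (-0.76 ± 0.19), RCC1 (-0.68 ± 0.18), the exchange factor of RAN, and THOC6 (-0.56 ± 0.16), and 0 rose, 7.32% lower where the background was 5.73%. The list's medians were -0.18 and -0.10, against -0.71 and -0.47 for the family. The response to oxaliplatin differed between the lines for NCBP2 (0.94 ± 0.27, edgeR adjusted p = 0.0464) and THOC6 (-1.33 ± 0.22, adjusted p = 0.000788). E1A was accompanied by 0 calls in each of its 4 comparisons (2, 0, 0 and 2 genes at an unadjusted p below 0.05).

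The 12 members that follow passed in no comparison: NUP107, NUP133, NUP85 and SEC13 of the Y complex, NUP155 of the inner ring, RANBP2, TPR, KPNA1, KPNA5, KPNA7, IPO7 and TNPO1. NUP107, NUP133, NUP155, IPO7 and TNPO1 are among those that stood apart in replicate 3 of HCT116 oxpl-R, and RANBP2 and TPR are those that stood apart in HCT116 oxaliplatin replicate 3.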

How the data were processed

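RNA-seq of 24 libraries (8 groups of 3) was analysed. Reads had been trimmed with Trimmomatic, quantified with Salmon 1.6.0 on GENCODE transcripts of GRCh38 and collapsed to genes with tximport. Estimated counts were deposited by the authors in a table used here up to SETP6 (33113 genes, 15.9% to 30.4% of values not whole per library), and a second table named TPM whose columns sum to 28004261 to 42613322, read as estimated counts scaled by length. Values were rounded to whole numbers. TNPO1, TNPO2, TNPO3 and TPR come from the second table, the other 44 members from the first.

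Counts were normalized by TMM and tested with edgeR 4.0.16 (R 4.3.3, quasi-likelihood test, 1 fit of 24 libraries, all genes with a count, Benjamini-Hochberg adjustment over 22833 genes, threshold 0.05, no fold limit). A normalized count is the count divided by the effective library size and multiplied by the mean effective library size. SEs are the log2 fold change over the root of F. The scripts were tested on simulated data. Alternatives were RLE, DESeq2 1.42.0, filterByExpr, the compared groups alone, a replicate block, the length-scaled table throughout and each library left out. Every member is named; sample values are printed for up to 3 members past the threshold with the largest changes in each direction in each of 10 comparisons of groups, at 50 normalized counts or more on average, and for members described for their libraries, chosen after their values were seen. At most 2 genes of the wider list are named per direction, plus RAE1 and, for oxaliplatin in HCT116 oxpl-R, THOC6, also chosen afterwards. The members, lists and tests were chosen with earlier results of these data known. Positions are those of GENCODE 44 on GRCh38 and promoters those of RefSeq (GRCh38.p14), matched by symbol for 48 and 43 members. A count of 0 allows up to 3 counts, for counting error only.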

Additional observations from a re-analysis of the deposited data

Results flagged for a closer look

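In KPNA6 the treated libraries lay on opposite sides of their controls in the lines after oxaliplatin. It fell from 4672, 5145 and 4448 to 2997, 3093 and 3787 normalized counts in HCT116 and stood at 5051, 5876 and 5036 in treated HCT116 oxpl-R against 4904, 4912 and 3569 in its controls, where the change of 0.25 ± 0.18 on the log2 scale did not pass (edgeR adjusted p = 0.554). The difference between the responses was 0.78 ± 0.25 (SE) on the log2 scale, with edgeR's quasi-likelihood adjusted p = 0.0842, so it did not pass the correction. It passed without HCT116 oxaliplatin replicate 3 (0.85 ± 0.25, edgeR adjusted p = 0.0338).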

How the results depend on the processing

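The refits followed 27 fold changes of members, chosen as past the threshold and largest in their comparison. None of them reversed: of 368 refits, 307 kept their side of the threshold and 61 lost the call. Other printed fold changes were not followed in this way. In the fit of the compared groups alone, calls among members were 27 (untreated lines), 2 (oxaliplatin in HCT116 oxpl-R) and 12 (E1A in HCT116), where 2754, 430 and 1196 of all genes were lower. The length-scaled table gave 6 for oxaliplatin in HCT116 oxpl-R, and DESeq2 gave 2 for the difference in oxaliplatin response. Chosen after seeing the data, leaving replicate 3 out of all HCT116 oxpl-R groups gave 31 for the lines under oxaliplatin, 31 for oxaliplatin in HCT116, 1 (KPNA5) for E1A in HCT116 oxpl-R, 1 (NUP205) for E1A with oxaliplatin there and 1 (KPNA2) for the difference in oxaliplatin response. Leaving out 1 library at a time gave 8 to 18 (lines untreated), 16 to 22 (oxaliplatin), 8 to 16 (E1A), 8 to 15 (both), 3 to 27 (oxaliplatin in HCT116), 2 to 9 (in HCT116 oxpl-R), 0 to 1 (E1A with oxaliplatin in HCT116 oxpl-R) and 0 to 4 (difference in oxaliplatin response). All genes called lower moved as well, from 561 to 2551 for oxaliplatin in HCT116. The causes were not tested. With replicate number as a block, calls were 20, 22, 19 and 17 between the lines, 25 and 12 for oxaliplatin, and 0 elsewhere. Labels give no meaning to the numbers and same-numbered libraries did not deviate together in all pairs; for oxaliplatin in HCT116 oxpl-R every library correlated best with its own number (r = 0.098, 0.283 and 0.375), a hint from the data and not the design. The RLE scaling moved the members by at most 0.08 on the log2 scale.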
